A study of Mus musculus with 8 samples.

Results

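Adamdec1 and 7 ADAM genes were described in mouse cells sorted as eosinophils from 2 tissues, bone marrow and small intestine. The ADAM genes were Adam8, Adam9, Adam10, Adam15, Adam17, Adam19 and Adam28. Together with Adamdec1 these are 8 of the 38392 genes in the deposited table, and all 8 were found in it by symbol. Adamdec1 was chosen by its difference between the tissues, which was among the largest rises in these same libraries, and its relatives were added with earlier results known. The differences of the 8 genes between the tissues are therefore given as a description, with no test.

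ADAM proteins (a disintegrin and metalloprotease) are mostly membrane-anchored enzymes that cut other membrane proteins close to the cell surface and release their outer parts, a process called shedding. In the active enzymes a prodomain keeps the protease silent until that prodomain is removed, often by a proprotein convertase. The metalloprotease domain binds a zinc ion, and the disintegrin domain can bind integrins. Adamdec1, also called decysin 1, is a short, secreted relative that lacks most of the domains after the protease, and it is known for its expression in the gut.

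The study asked how eosinophils adapt to the intestine, and RNA was sequenced from 4 bone marrow and 4 small intestinal libraries. All mice were wildtype and of the strain labelled C57/BL6, and the study used females, whose age the labels do not give. Bone marrow eosinophils were sorted as CD11b+Ly6G-Ly6C-SiglecF+SSChi cells and small intestinal eosinophils as CD11b+MHC-II-SiglecF+SSChi cells. Only the intestine was stripped of its epithelium, digested with collagenase and enriched with anti-CD11b beads before sorting, so tissue and handling cannot be told apart. Neither group received a treatment, and the libraries are named here by tissue (BM or SI) and by their number in the deposited table.

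Reads counted in genes ranged from 11508002 to 21289164 per library. The number of genes with at least 1 read ranged from 19713 to 33346, and BM_5, with 30886, held more than the other bone marrow libraries although its depth of 13648765 reads was near the lowest in that tissue. The defining markers were checked against the label. Of 9 eosinophil genes, 4 were higher in the small intestine (including Siglecf and the eotaxin receptor Ccr3), 4 were lower (including the granule proteins Epx and Prg2), and Ear6 was not called. A call means a limma adjusted p under 0.05, and 63.1% of all genes averaging 10 or more reads were called. In bone marrow, 10 neutrophil precursor genes took 3.76 to 4.45% of reads, led by Mpo at 149860 ± 19352 normalised counts (SD, n = 4), whereas the eosinophil list took 0.0202 to 0.0335%. The bone marrow libraries therefore carried more reads of neutrophil precursor markers than of eosinophil markers, and this holds for all 4 of them. Whether the differences between the tissues given below rest on a difference in cell type was not tested.

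The sequence of the zinc-binding site is printed for all 8 genes, because it is a known point of difference between Adamdec1 and the active ADAM proteases. Each line holds 33 bases of the reference transcript (GENCODE M21 on GRCm38), read 5′ to 3′ on the coding strand. Capitals mark the codons of the 3 positions that hold the zinc ion, which are histidine codons in the 7 ADAM genes. In Adamdec1 the last of them is not a histidine codon.
Adamdec1: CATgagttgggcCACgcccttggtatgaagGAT
Adam19: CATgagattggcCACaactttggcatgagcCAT
Adam8: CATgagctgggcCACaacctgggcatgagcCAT
Adam28: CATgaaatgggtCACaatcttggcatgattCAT
Adam9: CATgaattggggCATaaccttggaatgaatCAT
Adam17: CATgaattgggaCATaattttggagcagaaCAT
Adam10: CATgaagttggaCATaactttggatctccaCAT
Adam15: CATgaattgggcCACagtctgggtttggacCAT

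The Adamdec1 stretch lies at chr14:68570127-68570159 on the minus strand, in exon 11, and covers codons 351 to 361 of 467. The other coding sequences were longer and ran from 749 codons in Adam10 to 920 in Adam19. Of the 33 bases, Adam8 and Adam9 shared 25 with Adamdec1 at the same position, Adam15 and Adam19 shared 24, Adam28 shared 23, Adam17 shared 19 and Adam10 shared 17. In Adam10 the stretch is split by an intron between exons 9 and 10, and in the other 7 genes it lies within 1 exon.

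Adamdec1 (ENSMUSG00000022057, chr14:68563380-68582095, minus strand, GRCm38) was near the floor of detection in bone marrow and abundant in the small intestine. In BM_1, BM_3, BM_4 and BM_5 it stood at 12.3, 11.7, 9.57 and 14.9 normalised counts, which are read counts divided by the size factor of the library. In SI_6, SI_7, SI_10 and SI_11 it stood at 25957, 28425, 26879 and 36711 normalised counts. The tissues did not overlap, and the bone marrow values rested on 10 to 18 reads per library. The mean was 12.1 ± 2.18 normalised counts in bone marrow and 29493 ± 4918 in the small intestine (SD, n = 4 each), a ratio of 2435. On the deposited log2 scale, which is variance stabilised and compresses low values, the difference was 10.87 ± 0.20 (SE). It was the third largest rise of all genes, which is the value it was chosen for.

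Adam19, also called meltrin beta and known for shedding neuregulins, and Adam8, a leukocyte protease, had the next largest differences among the 8 genes. Adam19 (ENSMUSG00000011256, chr11:46055992-46147343, plus strand) stood at 39.8, 102.4, 86.1 and 104.1 normalised counts in BM_1, BM_3, BM_4 and BM_5. It stood at 20792, 27241, 28872 and 34497 in SI_6, SI_7, SI_10 and SI_11. Every intestinal library was above every marrow library, and BM_1 was the lowest of the marrow libraries. The mean was 83.1 ± 30.0 against 27850 ± 5639 normalised counts (SD, n = 4 each), and the difference was 8.39 ± 0.33 on the log2 scale.

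Adam8 (ENSMUSG00000025473, chr7:139978932-139992562, minus strand) stood at 28.4, 87.4, 53.6 and 74.4 normalised counts in BM_1, BM_3, BM_4 and BM_5. It stood at 14445, 19407, 16950 and 18734 in SI_6, SI_7, SI_10 and SI_11. The groups did not overlap, and BM_1 and SI_6 were the lowest libraries of their tissues for Adam8 and for Adam19. The means of 60.9 ± 25.8 and 17384 ± 2217 normalised counts (SD, n = 4 each) gave a difference of 8.17 ± 0.33 on the log2 scale.

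Adam28, a protease known from lymphocytes, was the least abundant of the 8 genes in both tissues when compared per kilobase of exon. It (ENSMUSG00000014725, chr14:68606027-68655842, minus strand) had 0, 1, 0 and 10 reads in BM_1, BM_3, BM_4 and BM_5, and 109, 92, 133 and 96 reads in SI_6, SI_7, SI_10 and SI_11. Apart from BM_5, marrow libraries held at most 1 read. The count of 0 in BM_1 allows a share of up to 1.65e-05% of its reads, and that in BM_4 up to 2.24e-05%. Normalised counts averaged 2.49 ± 4.55 in bone marrow and 126 ± 13.9 in the small intestine (SD, n = 4 each). The difference was 5.19 ± 0.57 on the log2 scale, and 5.81 without BM_5.

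Adam9, a widely expressed shedding protease, was also higher in every intestinal library, but by far less. Adam9 (ENSMUSG00000031555, chr8:24949611-25016927, minus strand) stood at 236, 213, 283 and 210.1 normalised counts in BM_1, BM_3, BM_4 and BM_5. It stood at 370.0, 569, 550.3 and 591 in SI_6, SI_7, SI_10 and SI_11. SI_6 lay well below the other 3 intestinal libraries and above all of the marrow libraries. The mean was 236 ± 33.8 against 520 ± 101 normalised counts (SD, n = 4 each), and the difference was 1.12 ± 0.22 on the log2 scale.

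The 2 best known shedding enzymes of the family, Adam10 and Adam17, did not share this direction. Adam10, which cuts Notch receptors (ENSMUSG00000054693, chr9:70678997-70780229, plus strand), stood at 1759, 1627, 1497 and 1505 normalised counts in BM_1, BM_3, BM_4 and BM_5. In SI_6, SI_7, SI_10 and SI_11 it stood at 971, 807, 732 and 896. All intestinal libraries were below all marrow libraries. The means were 1597 ± 123 and 852 ± 104 normalised counts (SD, n = 4 each), and the difference was -0.91 ± 0.18 on the log2 scale.

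Adam17, the enzyme that releases tumour necrosis factor (ENSMUSG00000052593, chr12:21323509-21373632, minus strand), stood at 1248, 996, 1129 and 1042 normalised counts in BM_1, BM_3, BM_4 and BM_5. In SI_6, SI_7, SI_10 and SI_11 it stood at 1049, 1126, 1059 and 1169. The tissues overlapped, and it was the only member of the 8 for which they did. Its means were 1104 ± 111 and 1101 ± 56.8 normalised counts (SD, n = 4 each). The 95% interval of the difference ran from -0.40 to 0.40 on the log2 scale, so these libraries leave room for a change of up to that size in either direction.

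Adam15, also called metargidin (ENSMUSG00000028041, chr3:89338542-89349996, minus strand), stood at 447, 451, 395 and 356 normalised counts in BM_1, BM_3, BM_4 and BM_5. In SI_6, SI_7, SI_10 and SI_11 it stood at 157, 146, 178 and 168. The tissues did not overlap, and all 4 intestinal values were low. The mean was 412 ± 45.3 against 162 ± 14.1 normalised counts (SD, n = 4 each), and the difference was -1.32 ± 0.18 on the log2 scale.

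Thus the 4 libraries of each tissue did not overlap for 7 of the 8 genes, 5 with all intestinal values higher and 2 with all lower. Over all 38392 genes, 34.3% did not overlap, and nothing is read from this count because the same contrast chose the genes. Since cells were sorted and sequenced in bulk, fewer cells that express a gene and less of its RNA per cell cannot be told apart.

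**Figure D1:**
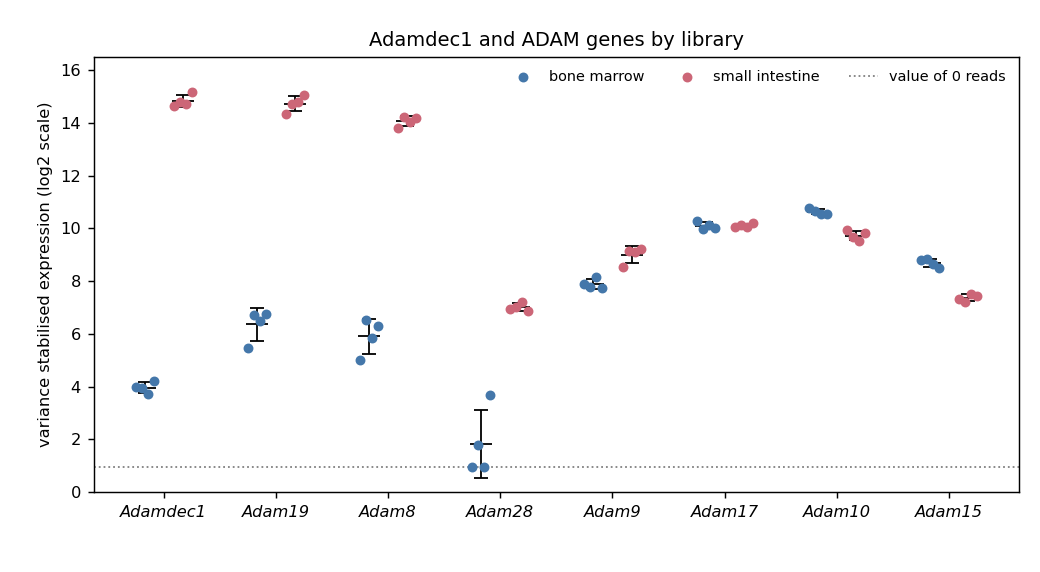
Variance stabilised expression (log2 scale) of the 8 genes in each of the 4 bone marrow and 4 small intestinal libraries, with the mean and SD of each tissue in black and the value of 0 reads as a dotted line. The tissues overlap for Adam17, and Adamdec1, Adam19 and Adam8 lie furthest apart, at 10.87, 8.39 and 8.17.

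These directions depended on the scaling in 1 respect. The median difference of all genes was 0.37 under the authors' size factors, and 22177 genes had a mean of fewer than 10 reads. When each library was centred on its median over all genes, the median difference became -0.53 and every difference moved down by the same amount. Adam9 then stood at 0.22 ± 0.47 (SE), Adam17 at -0.90, Adam10 at -1.81 and Adam15 at -2.22, whereas Adamdec1, Adam19 and Adam8 stood at 9.97, 7.49 and 7.27. The Adam9 difference was thus smaller than its SE under this centring, and its rise depended on the scaling. No member other than Adam17 changed its sign under any alternative, and Adam17 lay between -0.048 and 0.060 when each library was left out in turn.

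A ratio within a library does not depend on the scaling between libraries. When the normalised counts were divided by exon length, the 8 genes summed to 634 ± 33.8 normalised counts per kilobase in bone marrow and to 20234 ± 3079 in the small intestine (SD, n = 4 each). In bone marrow Adam10 held 51.3 ± 1.71% of that sum, Adam17 24.3 ± 1.67%, Adam15 10.6 ± 0.793% and Adam9 9.05 ± 1.34%. Adamdec1 held 0.786 ± 0.164% there. In the small intestine Adamdec1 held 59.7 ± 2.44%, Adam19 19.3 ± 1.71% and Adam8 18.6 ± 1.77%. The lead of Adamdec1 over Adam19 rests on the length used, which is that of all annotated exons of a gene together. It was 2442 bases for Adamdec1 and 7115 for Adam19. Before division by length they averaged 29493 and 27850 normalised counts, and in SI_10 Adam19 was the higher (28872 against 26879). Adam10 held 0.873 ± 0.189% of the intestinal sum and Adam17 0.769 ± 0.0771%. A share falls when the sum grows, and Adam17 itself stood at 154 normalised counts per kilobase in both tissues.

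**Figure D2:**
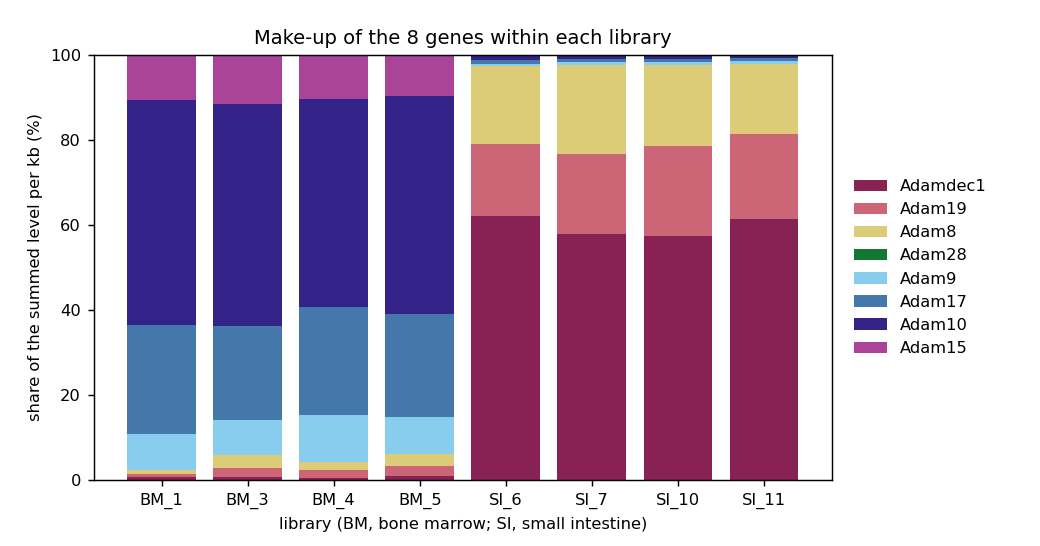
Share of each of the 8 genes in their summed level per kilobase of exon (%), in each library of bone marrow (BM) and small intestine (SI). Adam10 takes most of the bars of bone marrow, at 51.3% on average, and Adamdec1 most of those of the small intestine, at 59.7%.

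Ordered by level per kilobase in bone marrow, Adam10 (325 ± 25.1 normalised counts per kilobase, SD, n = 4) was followed by Adam17 (154 ± 15.5), Adam15 (67.1 ± 7.37) and Adam9 (57.3 ± 8.20). Adam8 (13.1 ± 5.56), Adam19 (11.7 ± 4.21), Adamdec1 (4.96 ± 0.893) and Adam28 (0.271 ± 0.495) came last. The library ranges overlapped between Adam15 and Adam9, between Adam8 and Adam19 and between Adam19 and Adamdec1, so the order of these neighbours is not settled. In the small intestine the order was Adamdec1 (12077 ± 2014), Adam19 (3914 ± 793), Adam8 (3748 ± 478), Adam10 (173 ± 21.2), Adam17 (154 ± 7.94), Adam9 (126 ± 24.7), Adam15 (26.4 ± 2.30) and Adam28 (13.8 ± 1.51). There the ranges overlapped between Adam19 and Adam8 and between Adam10 and Adam17. In normalised counts not divided by length, the ranges of Adamdec1 and Adam19 overlapped as well.

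SI_6 was the lowest intestinal library for Adamdec1, Adam19, Adam8 and Adam9 and the highest for Adam10. In the same library the epithelial, dendritic cell, macrophage, fibroblast and B and plasma cell lists took their largest shares of reads among the intestinal libraries, and the eosinophil list its smallest. Without SI_6 the Adamdec1 difference was 10.93, and it ranged from 10.76 to 10.96 when each library was left out in turn.

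Because the sorted cells could hold other cell types, marker lists were summed in each library as shares of reads, which are not corrected for gene length. Calls of single genes are set beside the shares over all genes, of which 22.0% were called higher and 12.9% lower. Among genes averaging 10 or more reads, 34.6% were called higher and 28.6% lower. The 10 macrophage genes took 0.00509 to 0.00665% of reads in bone marrow and 0.0138 to 0.0202% in the small intestine, and 7 of them were called higher there. The 7 dendritic cell genes took 0.00326 to 0.00438% and 0.0116 to 0.0724% (6 called higher), and the 8 fibroblast genes 0.000045 to 0.00055% and 0.00105 to 0.00518% (7 called higher). Adamdec1 alone took 0.167 to 0.213% of intestinal reads, and which of the sorted cells these reads came from was not tested. The 6 epithelial genes took 0.000425 to 0.000649% in bone marrow and 0.0169 to 0.106% in the small intestine, and all were called higher. Shares of the 4 endothelial genes were 0.00261 to 0.00366% and 0.0467 to 0.0561%, led by Pecam1, which many leukocytes also express.

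The 12 genes of a list known from the response to tissue dissociation, led by Dusp1 and Zfp36, took 0.00744 to 0.0092% of reads in bone marrow. They took 0.560 to 0.716% in the small intestine, where all 12 were called higher, beside 34.6% of all genes averaging 10 or more reads. The neutrophil precursor list fell to between 0.00452 and 0.00642% in the small intestine, with all 10 genes lower, beside 28.6% of genes at that level. For these 8 lists, the eosinophil list included, the tissues did not overlap, and the exact permutation test of each gave p = 0.0286, the smallest that 4 against 4 libraries allow (two-sided, 0.0357 adjusted over 10 lists). B and plasma cell genes took 0.00177 to 0.00315% and 0.0028 to 0.0171% (exact permutation p = 0.0571, adjusted 0.0635), and T cell genes 0.000157 to 0.000432% and 0.000282 to 0.000561% (exact permutation p = 0.143, adjusted 0.143). No marker of any list was at 0 in all libraries of a tissue. The dissociation list includes genes of the AP-1 transcription factor family. The study proposes that this family may be among the regulators of genes that change between the tissues. Since tissue and handling cannot be told apart, the name of the list does not give the source of its reads. The part of these cell types and of the dissociation response in the values of the 8 genes was not tested.

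**Figure D3:**
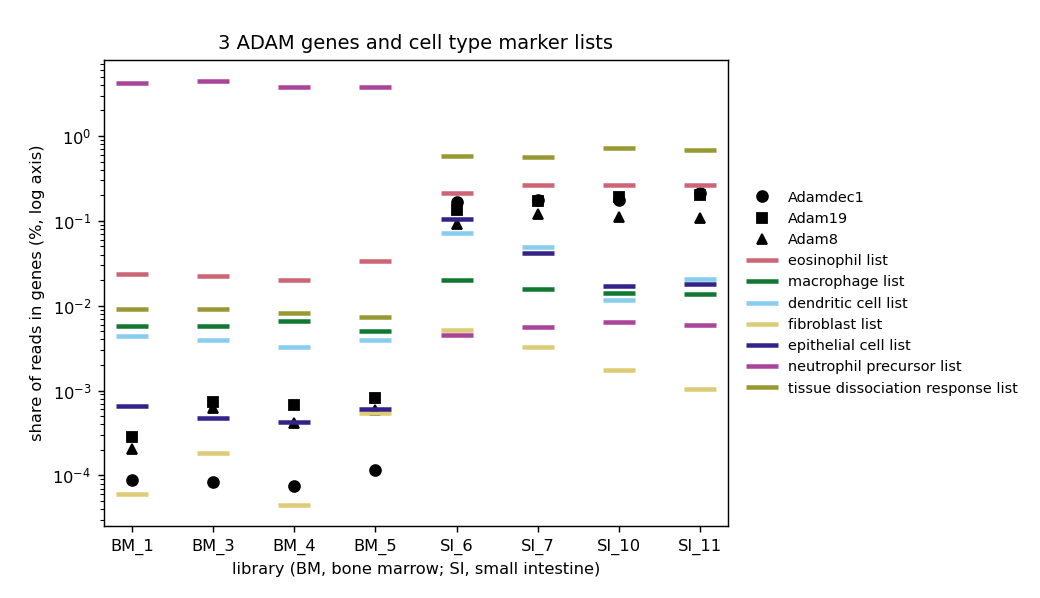
Share of reads in genes (%, log axis) for Adamdec1, Adam19 and Adam8 as black symbols and for 7 marker lists as bars, in each library. In the 4 intestinal libraries Adamdec1 takes 0.167 to 0.213% and the dissociation list 0.560 to 0.716%. The source of the Adamdec1 reads was not tested.

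By the root mean square distance between centred log2 values over the 8 libraries, 5 protein-coding genes among 19271 lay nearest to Adamdec1. They were Rgs1, a regulator of G protein signalling (distance 0.199), the chemokine Cxcl2 (0.261), the prostaglandin synthase Ptgs2 (0.292), the cytokine Il1a (0.321) and the transglutaminase Tgm2 (0.336). Their differences on the log2 scale were 10.92, 10.94, 10.77, 10.60 and 10.42. The distance is a description of similar size and spread in the same libraries. Values were centred over both tissues, so the distance includes the difference between the tissues for which Adamdec1 was chosen. The search therefore favours other genes with a rise of similar size.

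Adamdec1 lies between Adam7 and Adam28 on chromosome 14, with gaps of 29639 and 23932 bases. Adam7, which is known from the epididymis, averaged 6.28 ± 12.6 normalised counts in bone marrow and 10.99 ± 9.16 in the small intestine (SD, n = 4 each). Its difference of 1.69 ± 0.95 did not pass the test (limma adjusted p = 0.212). The next protein-coding genes outwards were Nefm, 438534 bases away, and Stc1, 447143 bases away.

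Other genes overlap 4 of the 8 on the annotation, and whether the counting used strand is not given in the sources used here. Gm16201 lies opposite Adam8 and averaged 2.99 normalised counts in bone marrow and 40.5 in the small intestine, well below Adam8 in the latter. Iah1 lies opposite Adam17, at 84.7 and 72.2. Mir8100 lies within Adam19 on the same strand, at 2.15 and 251, and 4731419I09Rik lies antisense to Adam15. Reads of these genes and of their partners may be shared. No other annotated gene overlaps Adamdec1, Adam9, Adam10 or Adam28.

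Promoter windows of 300 bases, 250 before and 50 after the start, were found in RefSeq (GRCm38.p6) for 5 of the 8 genes, in 7 windows. Those of Adam19 and Adam8 are printed because both genes were higher in every intestinal library by a similar amount. Capitals mark matches on either strand to the core of the aryl hydrocarbon receptor element (GCGTG), the AP-1 element (TGANTCA) or the NF-kappaB consensus. The Adam19 window is chr11:46055734-46056033 on the plus strand and the Adam8 window is chr7:139992513-139992812 on the minus strand.
Adam19: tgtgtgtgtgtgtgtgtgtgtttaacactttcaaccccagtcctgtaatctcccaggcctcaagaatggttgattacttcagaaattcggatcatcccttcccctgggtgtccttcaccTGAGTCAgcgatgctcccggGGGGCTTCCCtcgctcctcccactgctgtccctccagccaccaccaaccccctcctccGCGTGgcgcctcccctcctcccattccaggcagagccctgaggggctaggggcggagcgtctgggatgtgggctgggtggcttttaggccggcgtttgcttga
Adam8: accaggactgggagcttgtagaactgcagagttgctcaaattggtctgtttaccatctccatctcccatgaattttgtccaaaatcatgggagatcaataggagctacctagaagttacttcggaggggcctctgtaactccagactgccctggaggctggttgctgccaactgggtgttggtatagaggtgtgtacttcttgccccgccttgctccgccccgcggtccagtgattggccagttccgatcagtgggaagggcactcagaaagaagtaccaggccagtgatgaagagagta

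The Adam19 window held 1 match to each of the 3 motifs, and the Adam8 window held none. The other 2 Adam19 windows held none, and the windows of Adam10, Adam15 and Adam17 held 1 aryl hydrocarbon receptor core each. Of 32851 promoter windows of that length, 32.4% held the aryl hydrocarbon receptor core, 7.81% the AP-1 element and 4.51% the NF-kappaB consensus. A match describes the letters in the window and not a bound site.

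For the rest of the family and its partners, the limma test was run over all 38392 genes with Benjamini-Hochberg adjustment, and a gene was called at an adjusted p under 0.05. Of all genes, 34.9% were called, 22.0% higher in the small intestine (8465 genes) and 12.9% lower (4937 genes), and 16461 genes had an unadjusted p under 0.05. Among the 16215 genes that averaged 10 or more reads, 63.1% were called, 34.6% higher and 28.6% lower, with a median difference of 0.12. Genes near the floor thus lower the share called over all genes. Of the calls, 63.2% were higher, compared with 29.5% when each library was centred on its median over all genes and 45.8% after quantile normalisation.

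The other 27 ADAM genes, many of which are known from testis, were mostly low. In the small intestine 7 rose and 1 fell, 19 were not called, and the median difference was 0.54 beside 0.37 over all genes. Only 8 of the 27 had a mean of at least 10 reads, of which 4 rose and 1 fell, beside the 63.1% called among all genes at that level. The median difference of these 8 was 0.99, beside 0.12 over all genes at that level. Adam22, a protein without protease activity known from nerve cells, had the highest normalised counts of the list, which are not corrected for length, and rose from 99.6 ± 13.9 to 306 ± 37.1 normalised counts (SD, n = 4 each; 1.59 ± 0.19, limma adjusted p = 0.000331). Adam33 rose from 2.27 ± 1.29 to 33.7 ± 6.43 (2.84 ± 0.26, limma adjusted p = 6.74e-05). Adam30 (3.21 ± 4.84 to 79.7 ± 46.3) and Adam23 (5.70 ± 9.35 to 63.4 ± 20.5) also rose, by 4.16 ± 0.70 and 3.75 ± 0.77. Adam3, a sperm protein gene, was the 1 that fell, from 49.99 ± 10.5 to 13.5 ± 4.76 (limma adjusted p = 0.00124). Without BM_5 the number that rose was 11, and with median-centring over all genes it was 3, with 2 lower, and Adam22 was not called (0.69, limma adjusted p = 0.254).

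ADAMTS genes encode secreted relatives that cut extracellular matrix proteins, and ADAMTS-like genes lack the protease. Of 24, 11 rose, 3 fell and 10 were not called, with a median difference of 1.70. Of the 16 with a mean of at least 10 reads, 9 rose and 3 fell, beside the 63.1% called among all genes at that level. Their median difference was 2.07, beside 0.12 over all genes at that level. Adamtsl4 had the highest normalised count of the list in the small intestine and rose from 19.8 ± 2.15 to 482 ± 49.3 normalised counts (SD, n = 4 each; 4.37 ± 0.18, limma adjusted p = 1.3e-06). Adamts1, which cuts proteoglycans, rose from 3.45 ± 3.65 to 96.6 ± 21.01, and Adamts9, another proteoglycanase, from 4.70 ± 8.04 to 72.0 ± 29.7. The 3 that fell were Adamts3 (33.1 ± 12.04 to 9.03 ± 7.47), Adamtsl3 (36.9 ± 8.81 to 12.1 ± 7.04) and Adamts10. Adamts10 had the highest count in bone marrow, and its fall from 356 ± 39.2 to 246 ± 11.1 was the smallest (-0.52 ± 0.17, limma adjusted p = 0.0479). Its call was lost without BM_1 or BM_4, after quantile normalisation (limma adjusted p = 0.0928) and with centring on the median of genes with at least 10 reads (limma adjusted p = 0.0622). The number of genes that rose was 7 without BM_1, BM_4, SI_6 or SI_10 and after quantile normalisation.

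Regulators of Adam10 and Adam17 were taken as 18 genes that mature, escort or inhibit them. Of these 8 rose, 2 fell and 8 were not called, with a median difference of 1.10. Of the 13 with a mean of at least 10 reads, 6 rose and 2 fell, beside the 63.1% called among all genes at that level. Their median difference was 0.88, beside 0.12 over all genes at that level. Of 4 proprotein convertases in the list, 3 rose and Pcsk7 was not called, at 515 ± 76.1 and 490 ± 71.7 normalised counts (limma adjusted p = 0.799), named after its values were seen. Furin rose from 560 ± 27.7 to 2132 ± 442 normalised counts (SD, n = 4 each; 1.90 ± 0.21, limma adjusted p = 0.000188), and Pcsk5 from 7.11 ± 11.03 to 244 ± 191. Timp3, an inhibitor of both enzymes, rose from 8.88 ± 8.27 to 261 ± 65.2 (4.74 ± 0.54, limma adjusted p = 0.000227). Among the tetraspanins that escort Adam10, Tspan15 rose from 3.83 ± 3.07 to 94.2 ± 85.0, whereas Tspan5 fell from 852 ± 46.7 to 562 ± 65.7 (-0.60 ± 0.18, limma adjusted p = 0.0302). The other tetraspanins were named after their values were seen. Tspan17 rose from 4.50 ± 1.10 to 62.2 ± 10.1 (3.07 ± 0.21, limma adjusted p = 1.33e-05). Tspan14, at 592 ± 32.1 and 569 ± 47.9 (limma adjusted p = 0.818), Tspan10 and Tspan33 were not called. The intestinal libraries differed widely for Tspan15, from 39.1 to 220 normalised counts, and for Pcsk5, from 93.0 to 503. Reck, a membrane-anchored inhibitor of metalloproteases, fell from 245 ± 26.0 to 29.7 ± 9.02 (-2.93 ± 0.24, limma adjusted p = 3.58e-05). Rhbdf2 and Frmd8, which help Adam17 mature and were named after their values were seen, were not called, at -0.22 (limma adjusted p = 0.462) and -0.52 (limma adjusted p = 0.0528). Rhbdf1 of the same list, likewise named after its values were seen, was called higher. It rose from near the floor, at 0.59 ± 0.41 normalised counts, to 18.9 ± 10.9 (2.78 ± 0.36, limma adjusted p = 0.000457). Frmd8 was lower in every intestinal library, and it was called lower under 7 alternatives: an intensity trend, voom, the filter at 10 reads, median-centring over all genes, and without BM_5, SI_6 or SI_10 (limma adjusted p from 0.00618 to 0.0336). Tspan5 was not called without BM_1 (limma adjusted p = 0.0721) or BM_4 (limma adjusted p = 0.0635), and with median-centring 4 regulators were lower and Furin was not called.

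Known substrates of Adam10 or Adam17 were 32 membrane proteins, of which 17 rose, 4 fell and 11 were not called, with a median difference of 1.89. Cdh1 is also on the epithelial marker list, and Csf1r, Mertk and Cd163 are also on the macrophage list. All of these but Cd163, which was not called, were among the genes that rose. Of the 26 with a mean of at least 10 reads, 17 rose and 4 fell, beside the 63.1% called among all genes at that level. The median difference of these 26 was 2.74, beside 0.12 over all genes at that level. The decoy receptor Il1r2 rose from 192 ± 22.3 to 15566 ± 1473 normalised counts (SD, n = 4 each; 6.31 ± 0.18, limma adjusted p = 2.61e-07). The epidermal growth factor receptor ligand Hbegf rose from 1.93 ± 2.77 to 265 ± 69.3, and the adhesion molecule Icam1 from 49.5 ± 22.3 to 3217 ± 544. The substrate with the highest count in both tissues, the hyaluronan receptor Cd44, rose from 6331 ± 541 to 17134 ± 1725 (1.43 ± 0.18, limma adjusted p = 0.000363), a call lost with median-centring (0.53). In the other direction, the adhesion molecule Vcam1 fell from 5777 ± 755 to 236 ± 32.4 (-4.59 ± 0.20, limma adjusted p = 1.43e-06). The interleukin-6 receptor Il6ra fell from 448 ± 40.7 to 71.8 ± 16.98 (-2.60 ± 0.22, limma adjusted p = 3.98e-05). Tnf, the substrate that gave Adam17 its first name, was named after its values were seen and was not called, at 136 ± 15.7 and 196 ± 42.3 (limma adjusted p = 0.127). It was called higher with the filter at 10 reads (limma adjusted p = 0.0394) and without SI_6 (0.64, limma adjusted p = 0.0207).

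Integrin subunits that disintegrin domains can bind were 8 genes, of which 5 rose, 1 fell and 2 were not called, with a median difference of 1.44. All 8 averaged at least 10 reads, and 63.1% of all genes at that level were called, with a median difference of 0.12. Itga4 had the highest count in both tissues and rose from 3961 ± 208 to 35889 ± 4807 normalised counts (SD, n = 4 each; 3.17 ± 0.18, limma adjusted p = 6.13e-06). Its partner Itgb7, which forms the gut-homing integrin with it, rose from 38.8 ± 9.72 to 671 ± 116 (4.002 ± 0.23, limma adjusted p = 6.44e-06), and Itga9 rose from 15.7 ± 6.58 to 98.4 ± 35.8. The fibronectin receptor subunit Itga5 fell from 599 ± 58.2 to 172 ± 26.3 (-1.78 ± 0.19, limma adjusted p = 0.000161). Without SI_6 Itga6 was also lower, and with median-centring 3 rose and 2 fell. In the ADAM, ADAMTS and substrate lists 1 gene each had no read in bone marrow, and the medians did not change when that gene was set to its lower bound.

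**Figure D4:**
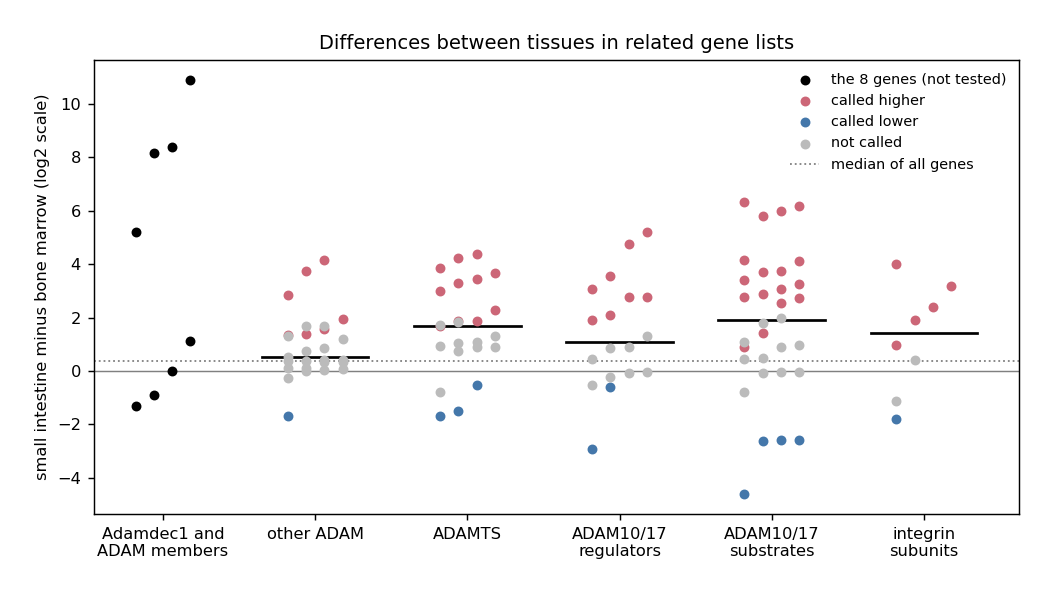
Difference between tissues (small intestine minus bone marrow, log2 scale) of each gene in the 5 lists and of the 8 described genes, coloured by call, with list medians as black lines and the median of all genes as a dotted line. List medians run from 0.54 for the other ADAM genes to 1.89 for the substrates, beside 0.37 over all genes.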

How the data were processed

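RNA-seq libraries of cells sorted as eosinophils from bone marrow (n = 4) and small intestine (n = 4) were compared. The deposited values are variance stabilised expression on a log2 scale, made by the authors from gene counts with DESeq2 in R 4.0.3 on GRCm38, as the submitters' processing notes and the study's methods state. The study's methods name the nf-core/rnaseq pipeline, and its aligner and strand setting were not given in the sources used here. The transformation compresses low values towards 0.92971568, the value of 0 reads. Because the transformation could be inverted exactly, read counts and size factors were recovered, and 100% of values came out whole within 0.05 reads. Normalised counts are those reads divided by the recovered size factors, and totals per library set the precision. The Wilson interval and the limits for 0 reads cover counting error only, and the interval of a difference reflects the spread between libraries.

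Deposited log2 values were compared between tissues without covariates with limma 3.58.1 in R 4.3.3 in place of the count model, over 38392 genes, with Benjamini-Hochberg adjustment and a threshold of 0.05. The script was tested on simulated data. Tables and figures used Python 3.11.15, matplotlib 3.10.9, scipy 1.17.1, pandas 2.3.3 and numpy 2.4.6. Marker sums were compared by exact permutation over all 70 assignments of the libraries. Positions and exon lengths are from GENCODE M21, in which all 38392 gene identifiers were found.

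The deposited columns give the tissue of each library but could not be tied to single samples. The study names 4 mice per tissue; p-values measure the spread between these libraries. The members, lists and tests were chosen with earlier results of these data known. The genes named were all 8 members, and from each related list the 3 called genes with the largest rise, the 3 with the largest fall and the one with the highest normalised count in each tissue. From marker lists the gene with the highest count in each tissue could be named, beside Siglecf, Ccr3, Epx and Prg2, and the 5 genes nearest to Adamdec1 were added. A substrate gene that the rule names is not reported here. Alternatives changed the scaling, the filter on low counts, the test and the libraries included.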

Additional observations from a re-analysis of the deposited data

Results flagged for a closer look

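In 158 groups of 4 libraries, the gap between the lowest or highest library and its nearest neighbour, divided by the range of the group, was compared with Dixon's 95% critical value. Chance sets about 1 group in 20 apart, and 7 of the 158 were.

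SI_6 stood apart in 4 of the 7. It was the lowest intestinal library for Adam9 (ratio 0.846), for Alox15 (0.866) and for the summed eosinophil markers (0.892), which took 0.215% of its reads (95% Wilson interval 0.213 to 0.217%). Alox15 is part of that sum and had its highest intestinal count, so these flags are not separate observations. SI_6 was the highest for the share of Adam10 in the summed level of the 8 genes (0.830). For the regulator Tspan5, SI_10 was the lowest intestinal library (0.978). In bone marrow, BM_4 had the highest share of Adam9 in the summed level (0.879), and BM_5 the highest share of Adam28 (0.934), with 10 reads against at most 1 in the other marrow libraries.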

How the results depend on the processing

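Of 420 combinations of a named list gene and an alternative, 411 kept the direction and the side of the threshold, 9 lost the call and 0 reversed. With median-centring over all genes, 4285 genes were higher and 10216 lower, the calls were 3 higher and 2 lower among the other ADAM genes, 4 lower among the regulators, and 3 higher and 2 lower among the integrin subunits, and the Adamdec1 difference was 9.97. Quantile normalisation gave 2 lower other ADAM genes, 7 higher ADAMTS genes, 7 lower substrates and 10.01 for Adamdec1. An intensity trend and voom each gave 2 lower integrin subunits, voom gave 11.20 and a log2 normalised count with a pseudocount of 1 gave 11.14 for Adamdec1, and a filter at 10 reads on average left 4 higher other ADAM genes because only 8 of the 27 remained. Adam17 changed sign under voom (0.000945) and without BM_1 (0.060), BM_4 (0.012), SI_10 (0.018) or SI_6 (0.022), all near 0. Apart from the filter, the cause was not tested.

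Leaving out each library in turn gave 6701 to 9596 higher and 4281 to 5166 lower genes, 6 to 11 higher other ADAM genes, 7 to 13 higher and 2 to 4 lower ADAMTS genes, 8 to 9 higher and 1 to 3 lower regulators, 17 to 19 higher and 4 lower substrates, 5 higher and 1 to 2 lower integrin subunits, 10.76 to 10.96 for Adamdec1 and -0.048 to 0.060 for Adam17. Centring on the median of the 16215 genes averaging 10 or more reads was added after seeing the data and kept every count of list calls within 1.5 times. No paired analysis was possible because no number in the labels is shared by a marrow and an intestinal library. Depth limits the bone marrow values of Adamdec1, at 10 to 18 reads per library, and of Adam28, and 22177 genes averaged fewer than 10 reads.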
